A study of Mus musculus with 12 samples.

Results

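Complement transcripts of mouse bone marrow derived macrophages were described for 8 components that macrophages can make: C1qa, C1qb, C1qc, C2, C3, C4b, Cfb and Cfp. They were chosen by name for their place in the cascade, with earlier results of these data known. Each symbol was matched to 1 row of a table of 55401 gene rows. RNA was sequenced in bulk from 6 libraries of old macrophages, from mice aged 12 months, and 6 libraries of young macrophages, from mice aged 8 weeks. All mice were of the C57BL6 background, and in both groups marrow cells were grown for 7 days with M-CSF at 20 ng/mL, a growth factor that turns marrow progenitors into macrophages. No nanoparticle or other agent is given for these libraries, and the series as a whole asks how old and young macrophages differ when they meet nanoparticles. The labels call the libraries biological replicates and do not tie them to single animals, so a p-value here weighs a difference only against the variation among these 12 libraries, which may be technical.

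Complement is a set of plasma proteins that tag microbes, dying cells and particles for uptake. In the classical pathway, C1q, built from A, B and C chains, binds its target and its partner proteases cleave C4 and then C2, and the pieces form an enzyme that cleaves C3. In the alternative pathway, factor B pairs with deposited C3 to cleave more C3, and properdin holds that enzyme together. The liver makes most plasma complement, while C1q comes mainly from macrophages and dendritic cells and properdin from myeloid cells.

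Counts assigned to genes came to 19345587 to 22356812 per old library and 22150081 to 25169045 per young library. Levels are given in CPM, a gene's counts scaled to a common library total with TMM factors, and in CPM per kb of exon where genes are set against each other. Macrophage markers were high throughout, with all 9 tested and a summed level of 32534 to 43745 CPM in old and 27177 to 44951 CPM in young libraries, led by Lyz2. Markers of other cells summed to far less. Neutrophil markers came to 6.01 to 55.1 CPM in old and 9.42 to 32.3 CPM in young libraries, with no marker at 0 throughout. B and plasma cell markers, nearly all Ighm, came to 87.8 to 261 CPM in old and 30.2 to 319 CPM in young libraries. T and NK cell markers reached 19 CPM in old and 0.0884 CPM in young libraries, and stromal markers reached 1.40 CPM in old and 0.898 CPM in young libraries, with Col3a1 and Lum at 0 in all 12. Monocyte and progenitor markers (43.3 to 89.7 CPM in old, 44.1 to 80.7 in young), dendritic markers (25.9 to 82.4 in old, 27.7 to 51 in young) and endothelial markers (20.5 to 49.4 in old, 23.9 to 51.4 in young, Emcn at 0) stayed low. So did osteoclast markers (15.2 to 31.3 in old, 15.8 to 24.5 in young) and mast cell and basophil markers (0.267 to 1.36 in old, 0.455 to 0.952 in young), and the part of these cells in the results was not tested. Old replicates 2 and 3 and young replicate 6 had the highest mean level of 20 cell cycle genes, so results are also given without these 3. Their mean log2 CPM was 6.28, 5.71 and 6.93. Young replicate 2 came next at 5.36, so no wide gap set old replicate 3 apart from it.

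The C1q chains and properdin were the most abundant of the 8 transcripts, and no C1q chain passed the test between the ages. C1qb was at 2713 ± 762 CPM per kb in old and 2914 ± 1181 CPM per kb in young libraries (SD, n = 6 each). C1qc was at 905 ± 230 and C1qa at 299 ± 136 CPM per kb in old libraries, against 933 ± 328 and 330 ± 172 in young libraries. Together the 3 chains took 0.359 to 0.641% of all assigned counts in old libraries and 0.243 to 0.788% in young libraries. The 3 genes lie side by side on chromosome 4 of GRCm38, all on the minus strand. C1qb (ENSMUSG00000036905) spans 136880129 to 136886187, C1qc (ENSMUSG00000036896) 136889804 to 136893065 and C1qa (ENSMUSG00000036887) 136895917 to 136898803. Counts cover all exons of a gene, untranslated ends included, and none of the exon bases of the 3 genes belonged to another annotated gene.

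Because these neighbouring genes moved together, the stretches around their starts are shown. RefSeq gave windows from 250 bases before to 50 bases after the start for 4 of the 8 members, on GRCm38.p6. The window of C1qb is chr4:136886151-136886450 and that of C1qc is chr4:136892865-136893164, both read on the minus strand from 5′ to 3′.
C1qb: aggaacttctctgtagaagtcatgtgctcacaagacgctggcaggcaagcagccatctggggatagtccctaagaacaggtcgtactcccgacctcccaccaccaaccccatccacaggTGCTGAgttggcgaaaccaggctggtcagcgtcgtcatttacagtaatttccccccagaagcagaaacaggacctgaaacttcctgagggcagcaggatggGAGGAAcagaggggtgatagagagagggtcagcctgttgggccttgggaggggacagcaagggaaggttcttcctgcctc
C1qc: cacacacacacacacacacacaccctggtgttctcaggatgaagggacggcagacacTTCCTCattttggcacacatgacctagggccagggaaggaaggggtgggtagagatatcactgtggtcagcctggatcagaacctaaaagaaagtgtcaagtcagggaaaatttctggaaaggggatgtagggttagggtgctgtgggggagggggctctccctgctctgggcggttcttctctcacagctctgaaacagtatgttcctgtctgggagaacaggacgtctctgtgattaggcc
Capitals mark matches to motifs searched on both strands, and distances run from the RefSeq start to the first base of a match. For C1qc that start lies inside the counted gene, which reaches 136893065, so its distances depend on which start is used. The core GAGGAA of the myeloid factor PU.1 was found once in each window, 30 bases before the start in C1qb and, as its reverse complement, 193 bases before it in C1qc. This core is common, present in 28.3% of 32851 windows of the same length. TGCTGA, part of the recognition element of MAF factors, lay 131 bases before the start in C1qb and is in 19.5% of windows. GAAANNGAA, part of the interferon-stimulated response element, and TTCNNNGAA, the STAT site, were in none of the 4 members' windows and in 8.56% and 8.30% of all windows. No 2 matches overlapped. A match describes letters and is neither a proven site nor a cause, and an absent one says only that these letters are not in this window.

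C1qa, the A chain, ranged from 176 to 504 CPM in old libraries with a median of 285, and from 111 to 636 CPM in young libraries with a median of 325. C1qb ranged from 2036 to 3844 CPM in old libraries with a median of 2944, and from 1350 to 5179 CPM in young libraries with a median of 3195. C1qc ranged from 1258 to 2198 CPM in old libraries with a median of 1764, and from 866 to 2768 CPM in young libraries with a median of 1822. For each chain young replicate 5 was the highest library and young replicate 6 the lowest, so the young group enclosed every old library. Within the old group replicates 1, 4 and 5 were high and replicates 2, 3 and 6 low for all 3 chains.

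The log2 fold change of old over young libraries was -0.14 for C1qa (SE 0.40, 95% interval -1.0 to 0.73), -0.10 for C1qb (SE 0.28, -0.71 to 0.50) and -0.04 for C1qc (SE 0.24, -0.57 to 0.48). Their edgeR adjusted p-values were 0.94, 0.94 and 0.97, by the quasi-likelihood test with Benjamini-Hochberg adjustment over 12620 genes. The interval of C1qa covers folds from 0.499 to 1.65, so changes within those bounds are compatible with these libraries. Without young replicate 5 the log2 fold changes turned positive, at 0.13, 0.09 and 0.12. That of C1qc was also positive without old replicate 2 (0.01), 3 (0.04) or 6 (0.02). Without old replicates 2 and 3 and young replicate 6 together the values were -0.07, -0.08 and -0.02.

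**Figure D1:**
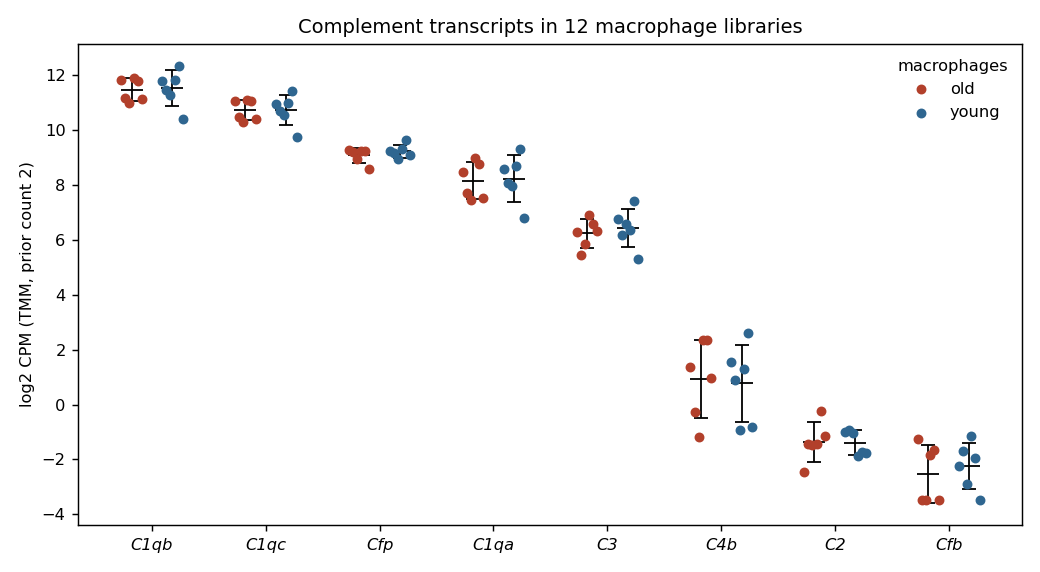
Level of each complement gene in log2 CPM (prior count 2), with 1 point per library, old left of young, and bars for the mean and SD of 6 libraries. Genes run from the highest to the lowest level per kb, the groups overlap for every gene, and Cfb points near the bottom are libraries with 0 counts.

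C1qa was low beside its partners although the chains are joined in equal numbers in the protein. Per kb, C1qb was 7.30 to 11.8 times C1qa in old libraries and 7.78 to 11.6 times in young libraries. C1qb stayed much closer to a fixed multiple of C1qc, at 2.87 to 3.10 in old and 2.77 to 3.32 in young libraries. The share of C1qa among the counts of the 3 chains was 4.8 to 7.69% in old libraries and 4.78 to 7.41% in young libraries. It was highest in old replicates 4 (7.69%) and 5 (7.08%) and young replicate 5 (7.41%), which are rich in C1q. It was lowest in old replicate 6 (4.8%) and young replicate 6 (4.78%), which are poor in it. Old replicate 1 gave C1q the same part of its assigned counts as old replicate 5 (0.609%), yet its share of C1qa was 5.84%. No 50-base stretch of the C1qa, C1qb or C1qc transcripts was found in another gene, and the cause of the low C1qa level was not tested.

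**Figure D2:**
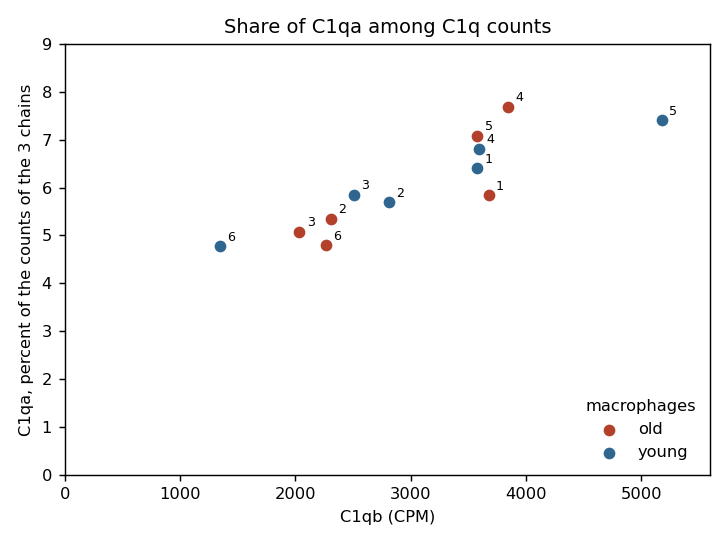
Share of C1qa among the counts of the 3 C1q genes, in percent, against C1qb in CPM, with red points for old and blue for young libraries, 1 point per library labelled by replicate number. The share lies between 4.78 and 7.69% and its 3 highest values are those of old replicates 4 and 5 and young replicate 5, which are rich in C1qb. Old replicate 1, also rich in C1qb, lies at 5.84%.

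The 3 chains varied together from library to library. Pearson's r of log2 CPM over the 12 libraries was 0.986 for C1qa with C1qb, 0.987 for C1qa with C1qc and 0.998 for C1qb with C1qc. Spearman's rho was 0.951, 0.979 and 0.979. Each of these had a permutation p of 1e-05, the smallest that 100000 resamples give, and an adjusted p of 9.3e-05 over the 28 pairs of members. Without young replicates 5 and 6, the 2 farthest from the median, r was 0.976 to 0.996. Within the old group r was 0.976 to 0.999 and within the young group 0.998 to 1.0. Among 9423 other genes of at least 5 CPM, C1qc was the gene most like C1qb and C1qb the gene most like C1qc. Ly86, which encodes MD-1, stood at rank 2 for C1qb (r = 0.988) and at rank 3 for C1qc (0.987). Scamp2 stood at rank 3 for C1qa (0.98), after both partners.

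C3 and the partners that form the enzymes cleaving it were present at much lower levels. C3, the central protein of all pathways, was at 15.4 ± 5.37 CPM per kb in old and 18.4 ± 8.51 in young libraries. C4b, the main mouse C4 gene, was at 0.451 ± 0.355 CPM per kb in old and 0.407 ± 0.364 in young libraries. C2 was at 0.0882 ± 0.0585 CPM per kb in old and 0.0795 ± 0.0311 in young libraries, and Cfb at 0.0436 ± 0.0505 in old and 0.0544 ± 0.0458 in young libraries (SD, n = 6 each). Down this order C1qb was above C1qc in every library, C1qa was above C3 and C3 above C4b. The ranges of C1qc and properdin met at their ends, and properdin overlapped with C1qa, C4b with C2 and C2 with Cfb.

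C3 (ENSMUSG00000024164) lies on the minus strand of chromosome 17 at 57203970 to 57228136. It ranged from 43.3 to 121 CPM in old libraries with a median of 79.1, and from 39.2 to 170 CPM in young libraries with a median of 89.0. Young replicate 5 was again highest and young replicate 6 lowest, with old replicate 4 second and old replicate 2 second from the bottom, and the groups overlapped. The log2 fold change was -0.26 (SE 0.32, 95% interval -0.96 to 0.45) with an edgeR adjusted p of 0.86, and -0.17 without old replicates 2 and 3 and young replicate 6. The start of C3 is shown because the genes most like it across libraries are interferon-induced, and its window is chr17:57228087-57228386, read on the minus strand.
C3: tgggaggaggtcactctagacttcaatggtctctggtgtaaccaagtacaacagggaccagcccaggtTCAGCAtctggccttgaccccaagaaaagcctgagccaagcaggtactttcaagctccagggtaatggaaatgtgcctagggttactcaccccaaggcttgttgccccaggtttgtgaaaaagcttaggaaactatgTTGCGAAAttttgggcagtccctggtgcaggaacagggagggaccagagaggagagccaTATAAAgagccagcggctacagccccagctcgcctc
Capitals mark TTGCNNAA, the C/EBP site, 45 bases before the RefSeq start (in 10.8% of all windows). They mark the reverse complement of the MAF element TGCTGA 182 bases before it. They also mark TATAAA, the letters of the TATA box, 14 bases after it (13.6%), and this match is not shown to be a working site.

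C4b (ENSMUSG00000073418), at 34728380 to 34743882 on the minus strand of chromosome 17, had 8 to 111 counts per old library and 10 to 140 per young library. It ranged from 0.356 to 5.01 CPM in old libraries with a median of 2.17, and from 0.438 to 6.06 CPM in young libraries with a median of 2.05. Old replicates 4 and 5 and young replicate 5 were high and old replicate 3 and young replicates 3 and 6 low, so each group covered nearly the whole range. The log2 fold change was 0.15 (SE 0.70, 95% interval -1.38 to 1.68) with an edgeR adjusted p of 0.96. It turned negative without old replicate 4 (-0.15) or 5 (-0.16) and without young replicate 3 (-0.06) or 6 (-0.06). It was 0.42 without the 3 libraries highest in cell cycle genes. Of the 50-base stretches of C4b transcripts 34.6% were also in C4a, its close relative and neighbour, so the split of reads between the pair is uncertain. C4a was at 1.07 ± 0.221 CPM in old and 1.18 ± 0.357 CPM in young libraries (SD, n = 6 each).

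C2 and Cfb did not pass the filter on low counts. C2 (ENSMUSG00000024371), the protease of the classical C3-cleaving enzyme, spans 34862604 to 34898265 on chromosome 17. It had 2 to 17 counts in old libraries, 44 in all, and 4 to 10 in young libraries, 43 in all. Old replicate 5 held 17 of them and old replicate 1 held 2, and the groups overlapped. Cfb (ENSMUSG00000090231), which encodes factor B, lies next to it at 34856374 to 34862518. It had 0 to 7 counts in old libraries, 16 in all, and 0 to 8 in young libraries, 21 in all. Old replicates 2, 3 and 6 and young replicate 6 had 0 counts of Cfb, which allows up to 0.155 CPM in old replicate 6 and 0.127 CPM in young replicate 6 (3 counts of the library, counting error only).

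The counts of these 2 genes are uncertain for another reason. Exons of Gm20547, an annotated gene on the same strand, cover 79.5% of the exon bases of Cfb and 42.8% of those of C2, and Zbtb12 on the opposite strand covers a further 4.2% of C2. Reads in shared bases are left out by the counting, and Gm20547 itself had 0 counts in all 12 libraries. Per kb of their own bases C2 was at 0.166 CPM in old and 0.150 CPM in young libraries, and Cfb at 0.213 CPM in old and 0.265 CPM in young libraries, so the order of C2 and Cfb depends on which bases are used. Without the filter the log2 fold change was 0.15 for C2 (SE 0.49, edgeR adjusted p 0.95) and -0.30 for Cfb (SE 0.94, edgeR adjusted p 0.95).

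Cfp (ENSMUSG00000001128), which encodes properdin, the stabiliser of the alternative pathway enzyme, was at about the level of C1qa per kb and varied least of the members. It lies on the minus strand of chromosome X at 20925454 to 20931555 and was at 316 ± 53.2 CPM per kb in old and 350 ± 59.4 CPM per kb in young libraries (SD, n = 6 each). It ranged from 381 to 619 CPM in old libraries with a median of 594, and from 491 to 792 CPM in young libraries with a median of 586. Young replicate 5 was highest, as for C1q, but the lowest was old replicate 6, and young replicate 6 stood in the middle of the range at 552 CPM. The log2 fold change was -0.15 (SE 0.13, 95% interval -0.43 to 0.13) with an edgeR adjusted p of 0.80. It was -0.17 without the 3 libraries highest in cell cycle genes. The Cfp window is shown beside those of C1q and is chrX:20931506-20931805, read on the minus strand.
Cfp: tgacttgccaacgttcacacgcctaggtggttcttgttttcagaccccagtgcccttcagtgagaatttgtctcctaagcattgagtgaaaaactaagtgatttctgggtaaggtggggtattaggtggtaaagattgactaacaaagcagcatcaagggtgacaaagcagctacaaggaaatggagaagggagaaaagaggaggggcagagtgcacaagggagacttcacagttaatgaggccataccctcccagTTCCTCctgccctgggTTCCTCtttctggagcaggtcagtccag
Capitals mark the reverse complement of the PU.1 core GAGGAA, found 6 and 22 bases after the RefSeq start, and none of the other motifs was found. The C1qb and C1qc windows hold this core too.

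No member passed between the ages. Of the 8 members 6 were tested and 0 passed an edgeR adjusted p of 0.05, where 0.0158% of all genes tested passed (2 of 12620), so the members' count is that of the background. None of the 6 had an unadjusted p below 0.05, against 690 of all genes, and DESeq2 and limma voom called 0 of them too. The median log2 fold change was -0.12 over the 6 members, with 1 positive, and -0.01 over all genes tested. In bulk RNA a smaller number of cells that make a transcript and less of it per cell cannot be told apart.

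**Figure D3:**
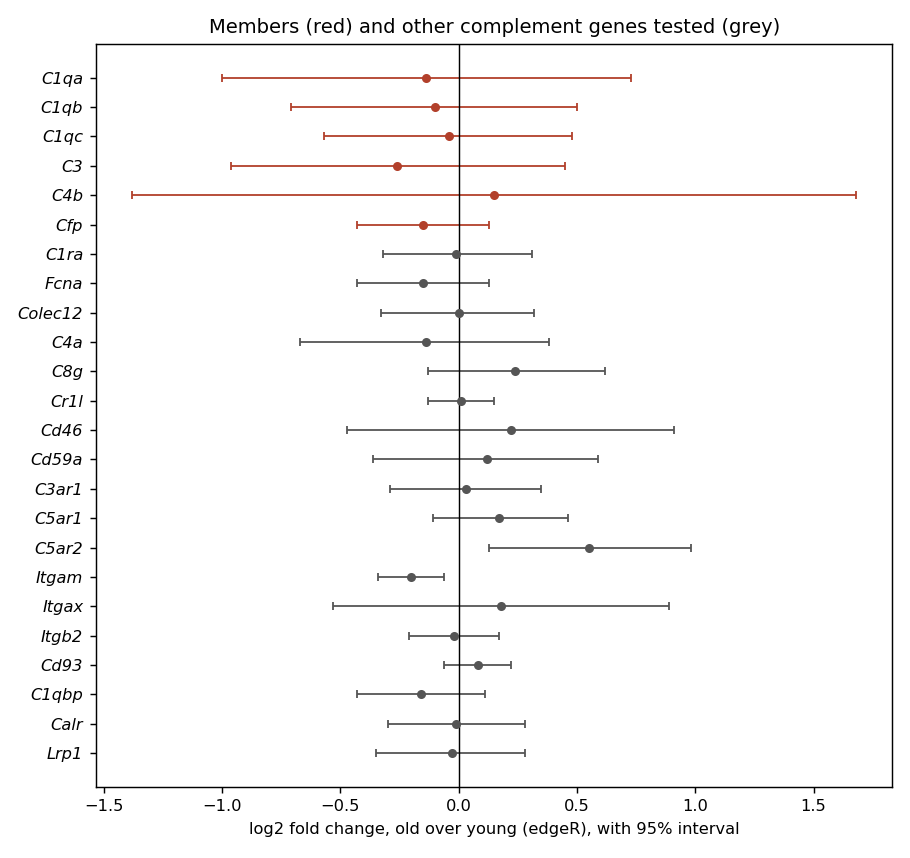
Log2 fold change of old over young libraries with its 95% interval from edgeR, for the 6 members tested (red) and 18 other complement genes tested (grey). The members' intervals all cross 0, and those of C1qa and C4b are the widest of the members at -1.0 to 0.73 and -1.38 to 1.68.

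The C1q chains, C3 and C4b varied more between libraries of 1 group than most genes of their level. The SD of log2 CPM within groups was 0.77 for C1qa, 0.55 for C1qb, 0.48 for C1qc, 0.62 for C3 and 1.40 for C4b, against a median of 0.22 over all genes tested. Among genes within 0.5 log2 units of its own mean level, C1qa had a larger SD than 99.1% of 461 genes. The share was 98.4% of 1666 genes for C3 and 99.5% of 868 for C4b, while few genes are as abundant as C1qb (94.1% of 17) and C1qc (100% of 36). Cfp, with an SD of 0.25, stood above 84.8% of 210 genes. The highest library held 5.72 times the lowest for C1qa, 3.84 times for C1qb, 3.20 times for C1qc, 4.33 times for C3, 17 times for C4b and 2.08 times for Cfp. Without old replicates 2 and 3 and young replicate 6 the SD was 0.58 for C1qa, 0.38 for C1qb, 0.33 for C1qc, 0.40 for C3, 1.07 for C4b and 0.29 for Cfp, so the spread was smaller for all of these but Cfp. The SDs of C2 (0.60) and Cfb (0.95) rest on a few counts per library.

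Other gene lists varied over the same libraries. The mean log2 CPM of 24 interferon-stimulated genes, led by Bst2, was 5.46 to 7.31 in old and 5.14 to 7.78 in young libraries. Old replicates 4 (7.31) and 5 (6.95) and young replicate 5 (7.78) were highest. Old replicates 2 (5.46) and 3 (5.67) and young replicate 6 (5.14) were lowest. The mean of 20 cell cycle genes, led by Pcna, ran the other way at these ends. It was 6.28 and 5.71 in old replicates 2 and 3 and 6.93 in young replicate 6. Old replicate 4 was at 4.05 and young replicate 5 at 4.44. Old replicate 6, poor in C1q, was low in this list too, at 4.13. A low C1q level therefore did not always go with a high cell cycle mean. Pcna itself was highest in young replicate 6 (481 CPM). It was at 258 and 224 CPM in old replicates 2 and 3, against 235 in old replicate 4 and 292 in young replicate 5. The 9 MHC class II genes, led by Cd74, had means of 4.86 to 6.53 in old and 4.69 to 6.35 in young libraries. They were highest in old replicate 6 (6.53), a library poor in C1q, and next in old replicate 4 (5.93) and young replicate 5 (6.35), which are rich in it. They were lowest in old replicates 2 (4.86) and 3 (5.28) and young replicate 6 (4.69), 3 libraries poor in C1q. The 14 tested NF-kB response genes, led by Nfkb1, had means of 3.82 to 4.61 in old and 3.91 to 4.51 in young libraries, highest in old replicate 4 and young replicate 5 and lowest in old replicates 2 and 3 and young replicate 6. No member of these lists passed the test between the ages. The part of these genes in the spread of C1q, C3 and C4b was not tested.

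**Figure D4:**
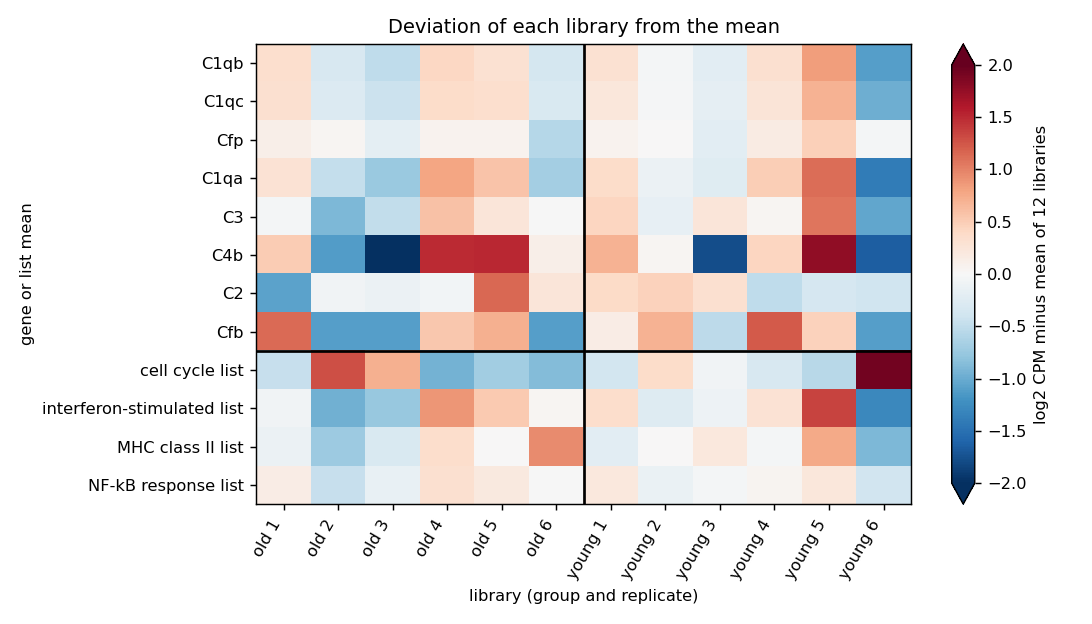
Deviation of log2 CPM from the mean of the 12 libraries for each complement gene (upper rows) and for the mean of each of 4 gene lists (lower rows), in log2 units, with old libraries left of young and colours capped at 2 units. Young replicate 5 is high and young replicate 6 low for the C1q chains, C3, C4b and the interferon-stimulated list, and the cell cycle list is highest in young replicate 6.

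C3 and C4b followed the C1q chains over all 12 libraries more loosely than the chains followed each other. For C1q chains with C3, r was 0.854 to 0.865 (permutation p 2.7e-04 to 3.4e-04, adjusted 0.0011 to 0.0012 over 28 pairs) and rho 0.769 to 0.86 (adjusted 0.0028 to 0.0099). The r was 0.671 to 0.71 without young replicates 5 and 6. It was 0.753 to 0.774 within the old group and 0.927 to 0.929 within the young group. Without old replicates 2 and 3 and young replicate 6 the r of C1q chains with C3 was 0.682 to 0.728 over 9 libraries and no longer passed (permutation p adjusted to 0.063 to 0.089). For C1q chains with C4b, r was 0.856 to 0.859 (permutation p 2.3e-04 to 4.5e-04, adjusted 0.0011 to 0.0014) and rho 0.839 to 0.888 (adjusted 0.0012 to 0.0040). The r with C4b was 0.817 to 0.855 without young replicates 5 and 6, 0.87 to 0.883 within old and 0.876 to 0.885 within young libraries. Without old replicates 2 and 3 and young replicate 6 it was 0.756 to 0.79 over 9 libraries. These pairs still passed, but at the edge of the threshold (permutation p adjusted to 0.04 to 0.05).

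Over all 12 libraries properdin had a lower r with the C1q chains than C3 and C4b did. Its rho overlapped with that of C3, and without the 3 libraries highest in cell cycle genes its r was above theirs. Its r with the C1q chains was 0.645 to 0.687 (permutation p 0.012 to 0.027, adjusted 0.022 to 0.041) and its rho 0.797 to 0.825 (adjusted 0.0054 to 0.0065). These values were 0.719 to 0.734 without young replicates 5 and 6, 0.661 to 0.694 within old and 0.727 to 0.742 within young libraries. Without old replicates 2 and 3 and young replicate 6 they were 0.916 to 0.936 (permutation p adjusted to 0.0016 to 0.0018). Over all 12 libraries the call stood near the threshold. With C1qb and with C1qc the call was lost in 9 of 12 cases of 1 library left out. These were old replicates 1, 3, 4 and 5 and young replicates 1 to 5. The r was then 0.514 without young replicate 5 and 0.616 to 0.653 without each of the others (adjusted p 0.051 to 0.16 in all). With C1qa the call was lost without old replicate 3 (0.662, adjusted p 0.054) or young replicate 5 (0.577, adjusted p 0.098). With library size as the only scaling the values for the chains were 0.528 to 0.576 and none passed (adjusted p 0.086 to 0.12). Cfp and C3 did not pass (r = 0.396, permutation p 0.20, adjusted 0.27, rho 0.483), nor did Cfp and C4b by r (0.53, permutation p 0.071, adjusted 0.10), although their rho of 0.762 did (adjusted 0.0099), and without old replicate 6 their r was 0.796 (adjusted p 0.0017). C3 and C4b passed with r = 0.758 (permutation p 0.0040, adjusted 0.0087) and rho 0.776. Without the 3 libraries highest in cell cycle genes they did not pass (0.517, adjusted 0.23).

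In all 18 of the 28 pairs passed by r. The share of all gene pairs that would pass was not computed. Among 9423 other genes of at least 5 CPM, C3 stood at rank 306 for C1qa, 335 for C1qb and 378 for C1qc. Cfp stood at rank 1042, 1235 and 1283, so many genes outside the members had a higher r with C1q than these 2. The 7 pairs with C2 ranged from -0.265 to 0.164 and none passed, at 2 to 17 counts per library. Of the 7 pairs with Cfb 5 passed, up to r = 0.803 with C1qa, but with at most 8 counts of Cfb in a library these rest on single counts. The 12 libraries share each library's depth and scaling between all members, so these values describe how transcripts varied together in these cultures.

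**Figure D5:**
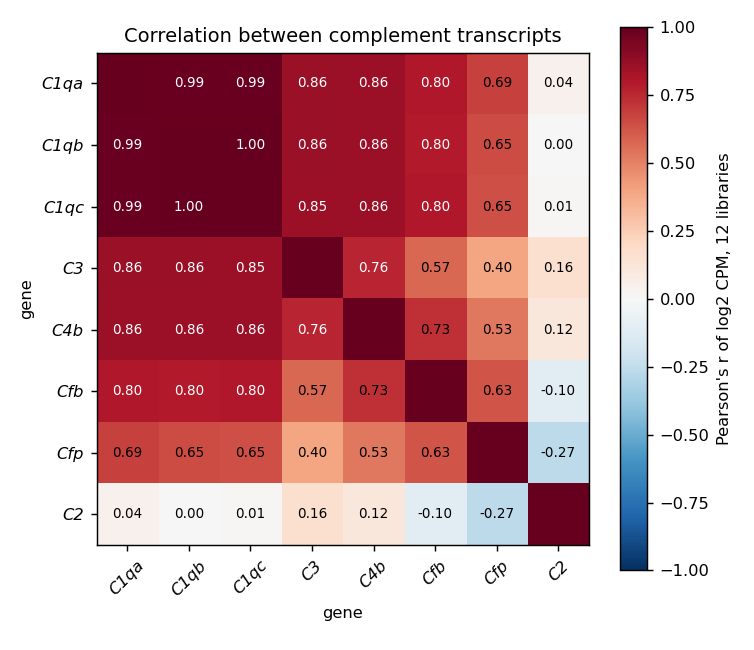
Pearson's r of log2 CPM between each pair of members over 12 libraries, from -1 (blue) to 1 (red). The C1q chains form a block at 0.986 to 0.998, C3, C4b and Cfb lie at 0.795 to 0.865 with them, Cfp at 0.645 to 0.687, and C2 near 0.

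The genes of at least 5 CPM most like the other members differed from those most like C1q. For C3 they were Ifit3 (r = 0.981), Irgm1 (0.973) and Ifi206 (0.973), all known as interferon-induced, over 12 libraries and 9423 genes. C1qb, at 0.865, stood at rank 275 of that order, and C3 stood at rank 306 for C1qa. For C4b they were Pim3 (0.946), Hspa5 (0.927) and Clec16a (0.927), and for Cfp they were Rps29 (0.971), Gm14303 (0.96) and 0610012G03Rik (0.946). For C2 (Tbce at 0.817, 0610009B22Rik at 0.809 and Atg14 at 0.733) and Cfb (Enpp1 at 0.91, Rhob at 0.886 and Epb41 at 0.88) they rest on a few counts. These genes had the highest r of all those compared, so the values describe a rank and carry no test.

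Other complement genes were covered by a list of 50, of which 18 were tested, 0 passed and 17 had no count in any library. The median log2 fold change of the 18 was 0, with 9 positive. Of 14 genes for recognition and initiation 3 were tested, led by Fcna, which encodes a ficolin, at 21.0 ± 3.96 CPM in old and 23.3 ± 3.04 CPM in young libraries, and Colec12, a collectin, at 17.7 ± 3.05 CPM in old and 17.8 ± 3.68 CPM in young libraries (SD, n = 6 each). Cfd, the protease that activates factor B, had 0 counts in every library. Of 7 terminal components only C8g was tested, at 3.71 ± 0.921 CPM in old and 3.13 ± 0.481 CPM in young libraries, and 4 had no count.

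Receptors were better represented than membrane regulators. Of 8 membrane regulators 3 were tested, led by Cr1l, which encodes the rodent inhibitor Crry, at 64.5 ± 4.65 CPM in old and 64.2 ± 4.11 CPM in young libraries, and Cd59a, an inhibitor of the terminal complex, at 6.43 ± 1.64 CPM in old and 5.94 ± 1.78 CPM in young libraries. Of 12 receptors 10 were tested, led by Lrp1 at 1346 ± 180 CPM in old and 1377 ± 368 CPM in young libraries. The anaphylatoxin receptor gene C3ar1 was at 1024 ± 166 CPM in old and 1003 ± 221 CPM in young libraries.

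Receptors held the 2 lowest p-values of the list, and both genes were chosen after their values were seen. C5ar2, a second receptor for the fragment of C5, was at 4.05 to 6.23 CPM in old libraries and 2.42 to 5.22 CPM in young libraries, with a log2 fold change of 0.55 (SE 0.20, edgeR adjusted p 0.77). Itgam, a subunit of complement receptor 3, was at 132 to 159 CPM in old libraries and 159 to 190 CPM in young libraries, with a log2 fold change of -0.20 (SE 0.06, edgeR adjusted p 0.77). The groups overlapped for C5ar2 and met at 159 CPM for Itgam, and neither passed. Gm49368 covers 68.7% of the exon bases of Itgam, so its counts come from the remaining bases.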

How the data were processed

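Per the labels' protocols, TRIzol RNA was used with the Illumina TruSeq RNA v2 kit, which does not keep strand. The authors deposited whole, unnormalised counts per gene, which featureCounts 1.6.0 made without strand from Ensembl release 100 gene models (GRCm38), per the file headers. The submitters' processing notes add FastQC, STAR and mm10 without versions. The sources used here do not say if mates of a pair count separately (C4b counts were even in 10 of 12 libraries), so a count need not be 1 molecule. Intervals of fold changes cover the variation between libraries, and the limit for a count of 0 covers counting error only. Column sums equalled the deposited assigned totals. No column was unused, and no 2 libraries agreed within sampling noise (chi-square per gene of 4.82 to 163).

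Old and young counts were compared by edgeR 4.0.16 under R 4.3.3 (quasi-likelihood F test, robust fitting, TMM factors of 0.918 to 1.045, edgeR's low-count filter), two-sided, with Benjamini-Hochberg adjustment over 12620 genes and a threshold of 0.05. CPM and log2 CPM (prior count 2) were computed here. Correlations used two-sided permutation tests of 100000 resamples in Python 3.11.15 with SciPy 1.17.1. The tests were checked on simulated data. The members, gene lists and naming rule were chosen with earlier results of these data known. One gene of the complement list is not reported here. The rule named all members, the 2 most abundant tested genes per complement role, the 3 genes most like each member and the most abundant gene of each list. Alternatives were RLE, upper quartile and library size scaling, other filters, DESeq2 1.42.0, limma 3.58.1 voom, fitting without robust estimation, a replicate block, a prior count of 0.5, group means removed, each library left out, and old replicates 2 and 3 with young replicate 6, highest in cell cycle genes, omitted jointly.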

Additional observations from a re-analysis of the deposited data

How the results depend on the processing

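None of the 6 tested members passed under any of 22 alternatives, where the lowest adjusted p was 0.58, for Cfp. Of all genes 2 passed, against 4 without a low-count filter, 11 with DESeq2, 4 with the replicate block and 1 to 5 with 1 library left out. The log2 fold changes of C3 (-0.42 to -0.01) and Cfp (-0.20 to -0.06) kept their sign in all 22. Those of the other members changed sign with 1 library left out, over ranges of -0.33 to 0.13 for C1qa, -0.26 to 0.09 for C1qb, -0.18 to 0.12 for C1qc and -0.16 to 0.71 for C4b. Without young replicate 5 they were 0.13, 0.09 and 0.12 for C1qa, C1qb and C1qc. That of C1qc was 0.01, 0.04 and 0.02 without old replicate 2, 3 and 6, and that of C4b was -0.15, -0.16, -0.06 and -0.06 without old replicate 4, old replicate 5, young replicate 3 and young replicate 6. These sign changes are within the standard errors. No scaling moved the median log2 fold change of all genes by over 0.1.

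Of the spreads, that of Cfb was 1.74 with a prior count of 0.5, against 0.95. With the 3 libraries richest in cell cycle transcripts (old replicates 2 and 3, young replicate 6) omitted they were 0.38 for C1qb, 0.33 for C1qc and 0.40 for C3. The number of pairs that passed was 18, against 10 with these 3 omitted, where only 9 libraries remain. It was 14 with library size alone and 14 to 18 with 1 library left out.

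The labels do not say whether a shared replicate number marks a shared day, and same-numbered libraries did not deviate together for every number. Their deviations correlated at 0.31, 0.12, 0.02, 0.38, 0.39 and -0.17, and of the old libraries only replicates 1 and 5 correlated best with their own number. With the replicate block 0 pairs passed, but the smallest p such a permutation allows is 0.031. The C1q chains kept r of 0.954 to 0.992 with each other, 0.879 to 0.973 with C3 and 0.808 to 0.84 with C4b. C1qa had a higher r with C3 (0.973) than with C1qb (0.964) or C1qc (0.954) under the block. The pairs of Cfp, those with C1q included, turned negative there, at -0.295 with C1qa, -0.314 with C1qb, -0.395 with C1qc, -0.276 with C3 and -0.62 with C4b. The cause was not tested.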

Other observations

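Vsig4, a complement receptor of tissue macrophages, was chosen after its values were seen. It had 0, 2, 2, 2, 0 and 0 counts in old replicates 1 to 6, and 10, 32, 8, 0, 2 and 40 counts in young replicates 1 to 6. Young replicates 4 and 5 overlapped the old libraries, and the highest young library was the one poorest in C1q. The gene did not pass the filter on low counts. Without that filter its log2 fold change was -3.80 (SE 1.05) with an edgeR adjusted p of 0.57.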
